A study of Rattus norvegicus with 6 samples.

Results

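The proneural factors and the factors of cortical projection neurons were examined in mRNA of rat cortical neural progenitors. They were chosen by gene symbol, and the list held 8 transcription factor genes: *Neurog1*, *Neurog2*, *Eomes*, *Neurod1*, *Neurod2*, *Neurod6*, *Tbr1* and *Bcl11b*. Of these, 6 had a row among the 17337 gene names of the tables. *Neurog2* and *Eomes* had no row of that name and were not analysed here. The cells came from cortices of Sprague Dawley embryos of embryonic day 14 and either sex, were grown untreated with bFGF and EGF and were collected after the second passage. PolyA-selected RNA was sequenced from 2 independent biological replicates, A and B, each split into 2 technical libraries, named A1 and A2 or B1 and B2. All 4 libraries are of 1 condition, so the replicates could be described against each other but not tested, and no p-value was computed. The unit is FPKM, a count of fragments scaled by transcript length and library size, so that levels of different genes can be compared.

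In the developing cortex, radial glia that take the glutamatergic route switch on Neurog proteins, basic helix-loop-helix (bHLH) factors that push progenitors towards neurons. Eomes marks the intermediate progenitors that follow, Neurod1, Neurod2 and Neurod6 are bHLH factors of newborn and maturing neurons, and the T-box factor Tbr1 and the zinc finger factor Bcl11b (Ctip2) specify deep-layer projection neurons. Proneural bHLH proteins bind DNA as dimers with E proteins at the E-box, and Id proteins block this by capturing the E proteins.

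Levels of the 6 factors were low in these cultures. The median of their means was 0.362 FPKM, against 3.83 FPKM over all gene names, and their means lay between the 32.5th percentile for *Tbr1* and the 41.6th percentile for *Bcl11b* among all names. Only *Bcl11b*, 1 of the 6, had a mean of at least 1 FPKM, while 60.5% of all gene names did. None of the 6 was listed at 0 in any library, against 74.5% of all names that were above 0 in the 4 libraries. In RNA from a whole culture, few cells with the transcript cannot be told apart from little transcript in each cell.

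The low values were set beside those of olfactory receptor genes, which are not thought to be used in these cells and were chosen as a reference after the levels were seen. Of 1196 olfactory receptor names, 1003 were at 0 in every library and the 95th percentile of the means was 0.00783 FPKM. *Tbr1*, the lowest of the factors, lay above all but 2 of the 1196. The factors were thus low but above the level at which most of these reference genes were listed.

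Depth differed between the libraries. The coverage (mean read depth per base) that corresponds to 1 FPKM was 22.7 to 24.4 in A1, A2 and B1 and 6.83 in B2, which is 28.1% of B1. Read counts are not part of the tables, so no counting interval can be given. All 7 cortical progenitor factors with a row were found, from 7.92 FPKM for *Nr2e1* to 478 FPKM for *Sox2*, and *Emx1* had no row. Replicate B also held more RNA of mesenchymal and meningeal marker genes: 10 of 10 were higher in both libraries of B than in both of A, against 24.2% of the names detected in at least 1 library, none was at 0, and their summed level was 661 to 675 FPKM in A and 2530 to 3069 FPKM in B. The part of depth and of these markers in the differences between A and B described here was not tested.

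*Neurog1*, the first factor of the sequence, is placed by the tables, which use the rn6 build, on chromosome 17 (plus strand, 9154656 to 9156175). A1 held 0.667 FPKM, A2 0.746 FPKM, B1 0.0645 FPKM and B2 0.317 FPKM. Both libraries of A were above both of B, and B1 was the lowest of all. The replicate values were 0.706 FPKM in A and 0.191 FPKM in B, a ratio of 3.71, and the mean was 0.449 ± 0.365 FPKM (SD, n = 2). The size of the ratio depends on single libraries of B, since it was 2.23 without B1 and 10.96 without B2. Coverage was 16.2 and 16.9 in the libraries of A and 1.57 and 2.17 in those of B. Coverage times the length of the gene came to 2387 aligned bases in B1 and 3291 in B2, so little sequence lies behind the B values. *Neurog3*, the remaining paralogue, which is best known from endocrine pancreas, was listed at 0 in all 4 libraries.

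*Neurod1*, a factor that takes newborn neurons into differentiation and a known target of Neurog proteins, is on chromosome 3 (minus strand, 66414321 to 66417617). The libraries of A had 0.361 and 0.433 FPKM, those of B 0.128 (B1) and 0.244 FPKM (B2). As for *Neurog1*, both A libraries were above both B libraries and B1 was lowest. The mean was 0.292 ± 0.149 FPKM (SD, n = 2), and A was 2.13 times B.

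*Neurod2*, which acts in maturing excitatory neurons, is on chromosome 10 (minus strand, 86280865 to 86282683). Replicate A gave 0.342 FPKM (A1) and 0.351 FPKM (A2) and replicate B 0.317 FPKM (B1) and 0.195 FPKM (B2), a mean of 0.301 ± 0.0642 (SD, n = 2). The libraries did not overlap, but B1 lay close to A1 and the lower value of B came mainly from B2, where the gene had 2424 aligned bases against 14031 to 15118 in the others. The ratio of A to B was 1.36.

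*Neurod6*, a factor of postmitotic projection neurons, is on chromosome 4 (minus strand, 85911861 to 85915107). Its levels were 0.311 (A1) and 0.365 FPKM (A2) against 0.392 (B1) and 0.625 FPKM (B2), and it was the single factor with both libraries of B above both of A. B1 exceeded A2 only slightly and B2 was well above the rest. The mean was 0.423 ± 0.121 FPKM (SD, n = 2), and B was 1.5 times A. The order within the family varied between libraries. *Neurod6* had 0.862 and 0.842 times the level of *Neurod1* in A1 and A2, and 3.05 and 2.56 times its level in B1 and B2. *Neurod2* had 0.947 and 0.811 times the level of *Neurod1* in A1 and A2, 2.47 times in B1 and 0.798 times in B2, so here B2 was on the side of A. *Neurod4*, the remaining member of the family, was above all 3 in every library, at 4.04 to 8.25 times *Neurod1* and a mean of 1.44 ± 0.583 FPKM (SD, n = 2). It was picked for this comparison after the values were seen.

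Sequences upstream of the genes were read for E-boxes, since the Neurog and Neurod proteins bind these sites and the factors with a row differed in the direction of their difference between replicates. RefSeq promoters of the build GRCr8 were at hand for 5 of the 6 factors (*Neurog1*, *Neurod1*, *Neurod2*, *Neurod6* and *Tbr1*, not *Bcl11b*), and the 250 bases before the annotated start were used. This build is not that of the expression tables, and the start sites used by these cells were not examined here. The letters CANNTG, which read the same on both strands, occurred 0 times for *Neurog1*, 1 time for *Neurod1*, 3 times for *Neurod2*, 4 times for *Neurod6* and 1 time for *Tbr1*. At least 1 such match is found in 65.5% of 33469 promoter sequences of this length. The form CAGATG, or CATCTG on the other strand, which is contained in CANNTG, occurred 1 time for *Neurod2* and 2 times for *Neurod6*, and 14.0% of all promoters hold it. These stretches are shown because they hold the extremes: *Neurog1* with no match (chr17:8367846-8368095, plus strand), and *Neurod2* (chr10:83824278-83824527, minus strand) and *Neurod6* (chr4:86180156-86180405, minus strand) with the CAGATG form. Each is written 5′ to 3′, ends at the base before the annotated start, and has every CANNTG match in capitals.
Neurog1: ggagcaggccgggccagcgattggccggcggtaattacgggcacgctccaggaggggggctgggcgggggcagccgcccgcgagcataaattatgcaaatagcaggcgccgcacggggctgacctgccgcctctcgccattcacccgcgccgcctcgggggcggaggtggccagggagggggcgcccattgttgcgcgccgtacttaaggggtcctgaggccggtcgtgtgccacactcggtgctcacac
Neurod2: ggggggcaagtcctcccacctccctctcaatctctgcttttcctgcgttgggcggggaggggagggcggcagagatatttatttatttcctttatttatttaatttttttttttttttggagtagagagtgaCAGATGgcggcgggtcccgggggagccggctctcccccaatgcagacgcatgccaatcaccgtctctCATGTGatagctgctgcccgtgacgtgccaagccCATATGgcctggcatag
Neurod6: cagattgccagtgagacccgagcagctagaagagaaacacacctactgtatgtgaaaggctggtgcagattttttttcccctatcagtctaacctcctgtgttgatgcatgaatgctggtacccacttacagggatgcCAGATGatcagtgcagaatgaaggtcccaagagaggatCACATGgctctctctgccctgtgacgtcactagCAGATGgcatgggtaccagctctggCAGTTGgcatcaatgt
In *Neurod6* the CAGATG matches start 112 and 41 bases before the annotated start, and in *Neurod2* the match starts 118 bases before it. *Neurod2* and *Neurod6*, which hold these letters, differed in opposite directions between A and B. A match in letters is not a bound site, and no binding was measured.

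*Tbr1*, the T-box factor of layer 6 neurons, is on chromosome 3 (plus strand, 47677720 to 47685902). The A libraries gave 0.255 and 0.308 FPKM, B1 gave 0.130 FPKM and B2 gave 0.345 FPKM. The libraries of A lay between those of B, so the replicates overlapped. The mean of 0.259 ± 0.0312 FPKM (SD, n = 2) was the lowest of the 6, and had the smallest SD, although the B libraries differed by a ratio of 2.66.

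*Bcl11b*, the factor of subcerebral projection neurons that is also expressed in striatal neurons, is on chromosome 6 (minus strand, 131834097 to 131926272). A1 and A2 had 2.08 and 2.09 FPKM, B1 had 1.15 FPKM and B2 had 0.0518 FPKM. It was the highest of the 6 in A1, A2 and B1 and the lowest in B2. The mean was 1.34 ± 1.05 FPKM (SD, n = 2), with 2.08 FPKM in A and 0.602 FPKM in B. The B value depends on 1 library, since B1 was 22.2 times B2: without B2 the level of B is 1.15 FPKM. Coverage in B2 was 0.354, whereas the FPKM of B1 at the depth of B2 would give 7.87. Of the 10481 gene names with a mean of at least 1 FPKM, 26 (0.248%) had a B2 value below 10% of the lowest of the other libraries, and *Bcl11b* was among them. For B1 in the place of B2 there were 0 such names. No other row of the tables overlaps *Bcl11b* or any of the other 5 factors.

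The gene names closest to *Bcl11b* over the 4 libraries, by the root mean square difference of log2(FPKM + 1), were *Hist2h2ab* (0.157), *Ttc39a* (0.158) and *Ggt1* (0.182). All of these were lowest in B2 as well, with *Ttc39a* listed at 0 there. The measure takes in level and pattern over only 4 libraries, and many names lie close at such low levels.

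**Figure D1:**
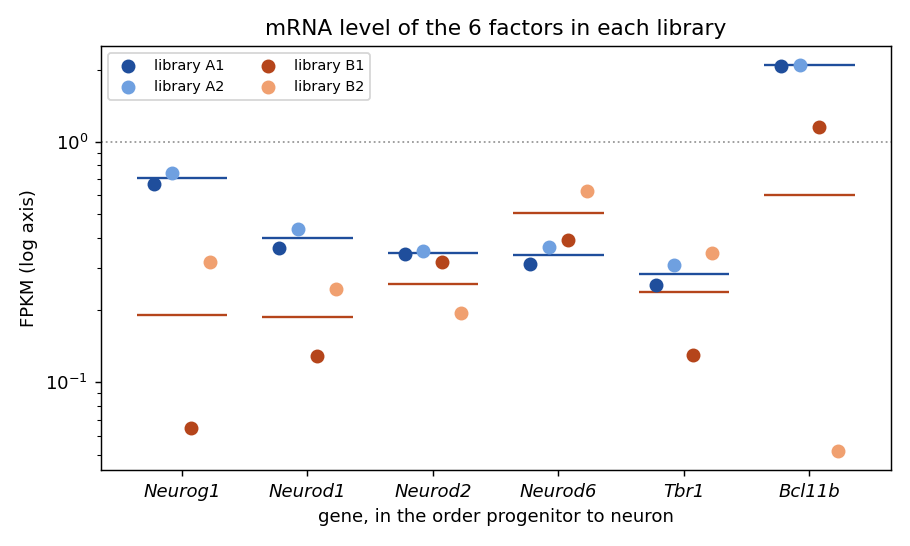
FPKM of the 6 factors on a log axis, 1 point for each library (A1 and A2 in blue, B1 and B2 in red and orange), with horizontal lines at the mean of the libraries of A (blue) and of B (red) and a dotted line at 1 FPKM. The A libraries lie close together for every gene, *Neurog1* and *Neurod1* are lower in B, *Neurod6* is higher in B, and *Bcl11b* spans 0.0518 FPKM in B2 to 2.09 FPKM in A2.

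By mean FPKM the order was *Bcl11b*, *Neurog1*, *Neurod6*, *Neurod2*, *Neurod1* and *Tbr1*. It did not follow the sequence from progenitor to neuron. For each of the 5 neighbouring pairs in this order the ranges of 1 SD around the means overlapped, so no neighbours differed beyond their spread. The order of a pair held in 1 to 3 of the 4 libraries. In replicate A alone, *Neurog1* stood second after *Bcl11b* in both libraries and *Tbr1* last, while in B the order differed between the 2 libraries as well.

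**Figure D2:**
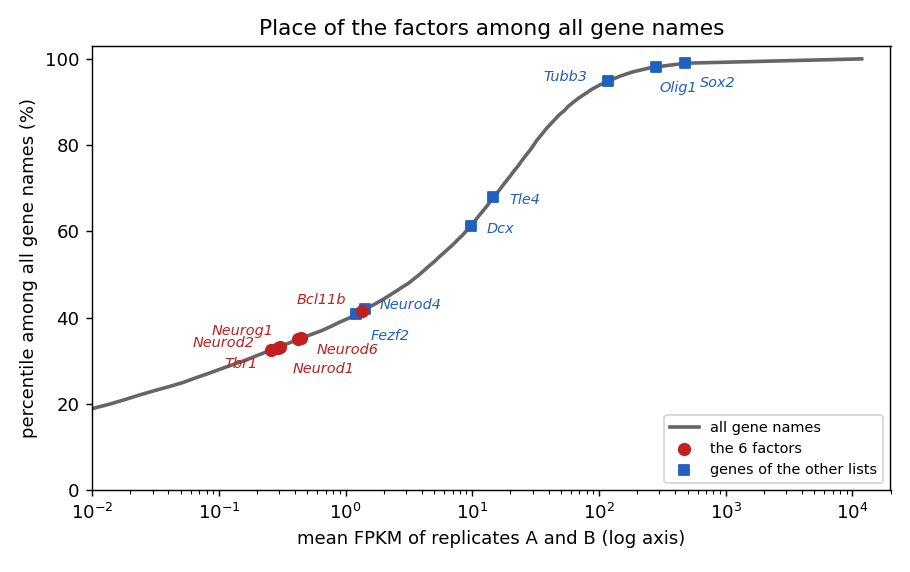
Percentile of the mean FPKM among all 17337 gene names (vertical axis) against the mean FPKM of replicates A and B (log axis), with the curve of all names in grey, the 6 factors as red circles and genes of the other lists as blue squares. The factors sit between the 32.5th and the 41.6th percentile, far below *Olig1* and *Sox2*. *Bcl11b* lies next to *Fezf2* and *Neurod4*, and the other factors lie below these.

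Between replicates, the libraries of 4 factors (*Neurog1*, *Neurod1*, *Neurod2* and *Bcl11b*) lay higher in A without overlap, those of *Neurod6* lay higher in B, and those of *Tbr1* overlapped. Of the 15031 gene names detected in at least 1 library, 30.4% were higher in both A libraries and 24.2% in both B libraries. On the log2(FPKM + 1) scale, which understates differences of low genes, B minus A ranged from -0.95 for *Bcl11b* to 0.17 for *Neurod6*. The median over the factors was -0.17, against -0.01 over the detected names. A gene was called different at a mean of at least 1 FPKM, a difference of at least 1 on this scale and no overlap, a rule that took in 650 of 10481 names (6.2%). Only *Bcl11b* reached the required mean and 0 of the factors were called. *Bcl11b* was called without B1, and its difference fell to -0.52 without B2, so B2 decides this value.

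Spread between technical libraries was unequal. On the same log2 scale the factors had a median absolute difference of 0.06 within replicate A (A1 against A2) and of 0.24 within replicate B (B1 against B2), and over the detected names it was 0.09 and 0.17. The value of 1.03 for *Bcl11b* between B1 and B2 was at the 97.4th percentile of names with a mean of at least 1 FPKM.

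Other proneural and neuronal bHLH genes showed a wide range in the same libraries. *Olig1*, a factor of the oligodendrocyte lineage, had the highest mean of the list at 282 ± 139 FPKM (SD, n = 2) and was called higher in B, with 172 and 195 FPKM in A1 and A2 and 523 and 237 FPKM in B1 and B2. This call rests on B1, since the log2 difference of 1.05 was 0.37 without it, and it was also lost without A1, at 0.96. It was the 1 call among 6 genes tested, against 6.2% of all names tested. Of the 12 genes listed, 6 had a mean of at least 1 FPKM and the median was 0.738 FPKM. The libraries lay higher in A for 5 of the 12 and higher in B for 3, against 30.4% and 24.2% of the detected names.

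The partners and inhibitors of bHLH factors were present at much higher levels. Among the E proteins, *Tcf3* had 153 ± 11.9 FPKM, *Tcf4* 152 ± 29.6 FPKM and *Tcf12* 20.1 ± 0.42 FPKM (SD, n = 2 for each), and 0 of the 3 were called between replicates, against 6.2% of all names tested, so that 0 is near the background. Both libraries of B were above both of A for 2 of the 3, *Tcf3* and *Tcf4*, against 24.2% of the detected names, and those of *Tcf12* overlapped. The 8 Id and Hes/Hey genes were all at 1 FPKM or more with a median of 123 FPKM, from *Hey2* at 10.6 FPKM to *Id3* at 1161 FPKM, and *Id1* was next highest at 391 FPKM. *Hes5*, a target of Notch that represses proneural genes, was the 1 gene called of the 8 tested, against 6.2% of all names in either direction and 1.42% higher in A. It had 397 and 400 FPKM in A1 and A2 and 197 and 162 FPKM in B1 and B2, and so was higher in A, as *Neurog1* and *Neurod1* were. Of the 8 genes 4 were higher in both libraries of A and 0 in both of B, against the same 30.4% and 24.2%.

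Genes downstream of proneural factors and of intermediate progenitors likewise had a median far above that of the factors. Of 12 genes listed 11 had a row (*Insm1* had none), 10 of these had a mean of at least 1 FPKM, and the median was 89.6 FPKM. *Gadd45g* had 369 ± 115 FPKM and *Hes6* 255 ± 50.2 FPKM (SD, n = 2), while *Cbfa2t3* was lowest at 0.668 FPKM, below *Bcl11b*. Both libraries of A were above both of B for 8 of the 11 and below both for 2, against 30.4% and 24.2% of the detected names, and 4 were called higher in A against 1.42% of all names tested: *Dll1*, a Notch ligand, *Rnd2*, a GTPase of migrating neurons, *Elavl4*, a neuronal RNA-binding protein, and *Btg2*, an antiproliferative gene of neurogenic divisions. *Dll1* had 128 and 118 FPKM in A1 and A2 and 68.8 and 43.1 FPKM in B1 and B2. *Rnd2* had 318 and 352 FPKM in A and 134 and 181 FPKM in B. These differences were close to the threshold: without A2 only *Dll1* and *Rnd2* were called, without B2 only *Rnd2* and *Elavl4*, and without B1 *Rnd2* was lost.

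**Figure D3:**
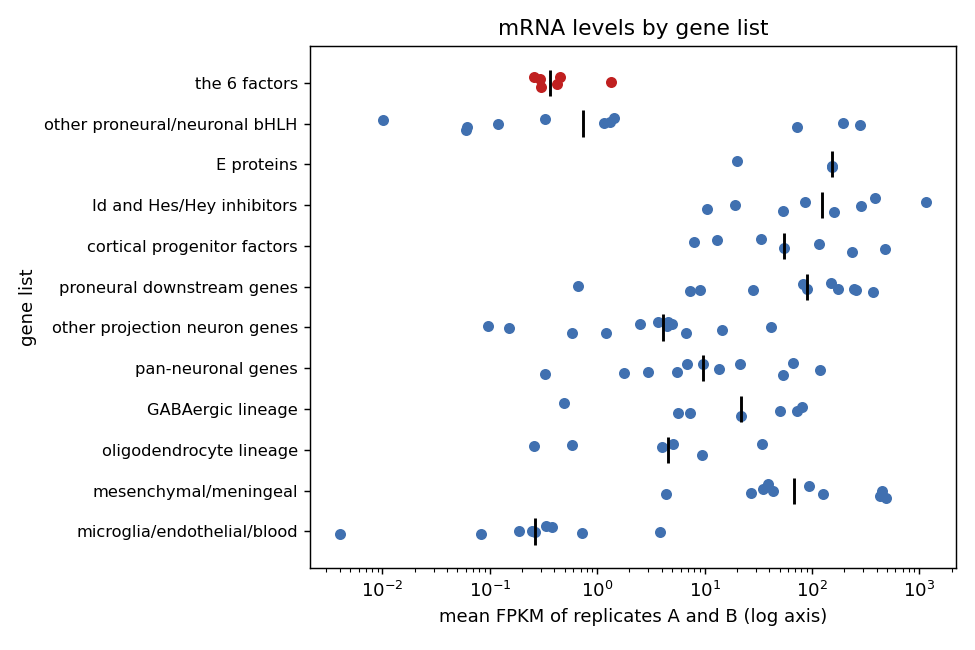
Mean FPKM of replicates A and B on a log axis for each gene, grouped by list, with the 6 factors in red and a black bar at the median of each list. *Neurog3*, listed at 0, is not drawn. The factors have a median of 0.362 FPKM, close to the 0.263 FPKM of microglia, endothelial and blood markers and below the 89.6 FPKM of the proneural downstream genes.

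Other genes of projection neurons had a higher median than the factors, close to that of all gene names. Rows were found for 12 of 14 (*Cux1* and *Mef2c* had none), 9 had a mean of at least 1 FPKM and the median was 4.08 FPKM, against 3.83 FPKM over all names. *Pou3f2*, a factor that progenitors also express, had 41.9 ± 17.4 FPKM and *Tle4*, a corepressor of layer 6 neurons, 14.7 ± 3.38 FPKM (SD, n = 2). The lowest was *Slc17a7*, the vesicular glutamate transporter of mature cortical neurons, at 0.0965 ± 0.0142 FPKM. *Fezf2*, which acts upstream of *Bcl11b* and was picked after the values were seen, had 1.21 ± 0.512 FPKM. Of the 9 that were tested 0 were called between A and B, against 6.2% of all names tested (1, *Foxp2*, was called without B1), and 7 of the 12 had both libraries of A above both of B and 2 the reverse, against 30.4% and 24.2% of the detected names.

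Pan-neuronal genes were also found in these cultures. All 11 had a row and 10 reached a mean of 1 FPKM, with a median of 9.70 FPKM. *Tubb3*, a neuronal tubulin, had 118 ± 9.88 FPKM and *Gap43*, a protein of growing axons, 66.5 ± 4.0 FPKM (SD, n = 2), while the neurofilament gene *Nefl* was lowest at 0.327 FPKM. *Dcx*, a microtubule protein of young neurons, was picked after the values were seen and had 9.70 ± 2.79 FPKM. Of the 10 that were tested 0 were called between replicates, where 6.2% of all names were, and 6 of the 11 had both A libraries above both B libraries and 1 the reverse, where 30.4% and 24.2% of the detected names did. With so few genes, a count of 0 is near that background, and 1, *Ncam1*, was called without B2.

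**Figure D4:**
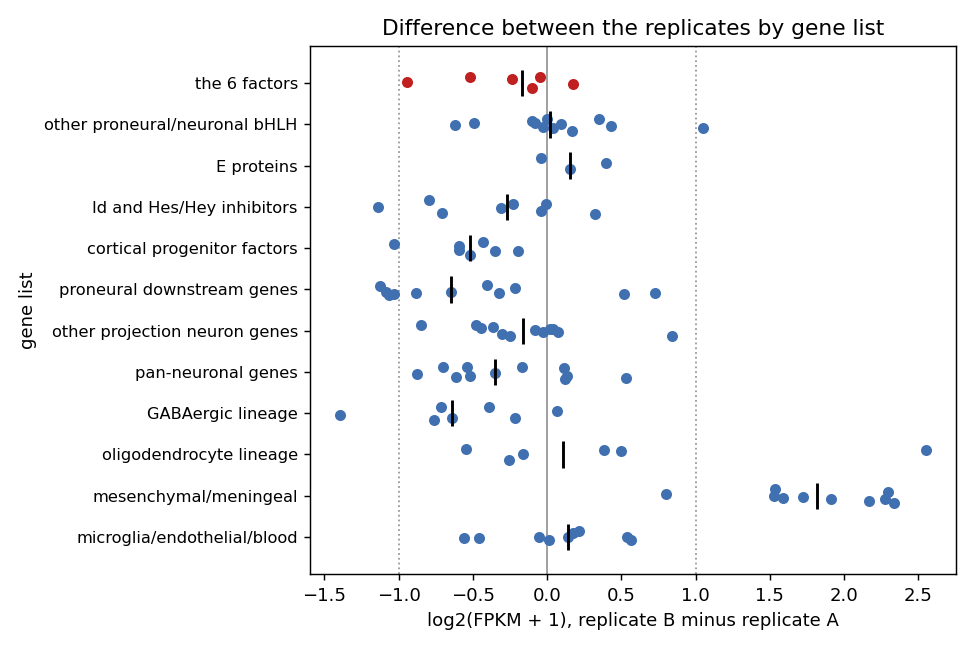
Difference of log2(FPKM + 1), replicate B minus replicate A, for each gene, grouped by list, with the 6 factors in red, black bars at the medians and dotted lines at -1 and 1. The factors range from -0.95 to 0.17, the proneural downstream genes have a median of -0.65, and the mesenchymal and meningeal markers have a median of 1.82.

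Cortical progenitor factors lay higher in A for 6 of 7 genes, against 30.4% of the detected names, the replicates of the remaining 1 overlapping, and 1 of the 7 was called, higher in A, against 1.42% of all names tested in this direction and 6.2% in either. Without A1 or without B2, 0 of the 7 were called. *Sox2*, the highest of them, had 478 ± 137 FPKM (SD, n = 2). Mesenchymal and meningeal markers went the other way and 9 of 10 were called higher in B, against 4.78% of all names tested, and 8 without B2, where *Foxc2* was lost. *Col3a1* had the highest mean of these, 486 ± 399 FPKM, and *Foxc2* the lowest, 4.37 ± 3.69 FPKM (SD, n = 2). Of the factors, *Neurog1*, *Neurod1*, *Neurod2* and *Bcl11b* lay lower in B, *Neurod6* lay higher in B and the replicates of *Tbr1* overlapped. These values stand beside lower values of several progenitor genes and higher values of mesenchymal genes in the same libraries. Which of these go together was not tested.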

How the data were processed

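RNA-seq libraries of 2 biological replicates (A and B, 2 technical libraries each) were used. Start-seq data of these cells were not analysed here. Alignment by the authors was to the rn6 build with STAR, and the deposited tables give for each gene the FPKM and TPM computed by the authors, with the columns of a StringTie abundance table. For expression levels the paper cites Rsubread and DESeq2, and versions are not given in the sources used here. Coverage as deposited is a mean depth of reads along the gene, not scaled for library depth. Depth is known only through coverage per FPKM.

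Rows sharing a gene name had their FPKM added, technical libraries were averaged within each replicate, and means and SDs are of n = 2 replicates. The percentile of a gene is the share of the 17337 names with a lower mean. Differences between A and B used log2(FPKM + 1) of the technical means, without a test. The call rule was tested on simulated libraries, which cannot show how often it errs on the libraries used here. Genes named are the factors, the 2 highest and the lowest of each list, up to 4 called genes of a list, and the 3 nearest names to each factor with a mean of at least 1 FPKM. Other names are said to be picked later, and some genes under this rule are not reported here. The factors and the 11 lists were chosen with earlier results of these data known. Aligned bases were taken as coverage times gene length where this product was whole (within 0.01) in at least 3 of the 4 libraries. Alternatives were TPM, a pseudocount of 0.1, other minima and thresholds, median-ratio scaling, the highest row of a name, logs averaged over technical libraries, and libraries or replicates left out. Calls of the list genes and ratios with each library left out were added after seeing the data. Python 3.11.15, pandas 2.3.3, numpy 2.4.6 and matplotlib 3.10.9 were used.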

Additional observations from a re-analysis of the deposited data

Results flagged for a closer look

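The 4 libraries were examined for a single library far from the others, by the gap to the nearest library over the whole range, in 59 values: the factors, the genes named by the rule, the summed level of each list and the depth. There were 6 such values. Chance gives about 1 in 20 when samples are independent, which libraries in technical pairs are not. None of the 6 factors was among them.

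The coverage per FPKM was 6.83 in B2 and 22.7 to 24.4 in the other libraries. *Foxc1*, a meningeal transcription factor, had 115 FPKM in B2 and 14.1 to 29.4 FPKM elsewhere, and *Foxc2* had 10.7 FPKM in B2 and 1.73 to 3.24 FPKM elsewhere. *Id1* had 546 FPKM in B1 and 324 to 361 FPKM elsewhere. The summed FPKM of the other proneural and neuronal bHLH factors was 869 in B1 and 433 to 454 elsewhere. *Cx3cr1*, a microglial receptor, was at 0.016 FPKM in B1 and listed at 0 in the others.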

How the results depend on the processing

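Of 58 alternatives for the summary values, 43 kept them within 1 SD of the replicates or technical libraries or, for counts, within 1.5 times, and the cause was not tested for the other 15. Some of the 43 could not have failed. With n = 2, each replicate lies within 1 SD of their mean, so *Neurod6* over *Neurod1* stays within it without either. Each factor has 1 row, so taking the highest row of a name cannot change its level. The median level of the factors was 0.607 in TPM, a unit on another scale, against 0.362 FPKM, and ranged from 0.247 to 0.401 FPKM with replicates or libraries left out. Their median percentile ranged from 32.5 to 34.7 with 1 replicate left out. The number of factors at 1 FPKM or more was 0 at a threshold of 2 FPKM and when 1 FPKM was required in every library, and 0 to 1 with a replicate left out. With a pseudocount of 0.1 the median difference between A and B was -0.56 in place of -0.17, and the median difference between technical libraries 0.49 in place of 0.15. In place of 0, 1 factor, *Bcl11b*, was called with TPM, with a pseudocount of 0.1, at a log2 difference of at least 0.58, and with logs averaged over technical libraries (an alternative chosen after seeing the data), and 0 to 1 with a library left out. The gene names called, 650 in the main version, were 757 with TPM, 900 with a pseudocount of 0.1 and 1725 at a log2 difference of 0.58. They were 645 with logs averaged, 890 without B1 and 331 with a minimum mean of 10 FPKM. Of the single factors, *Tbr1* alone changed direction between A and B in 1 of 8 alternatives, from -0.05 to 0.07 without B1, and was not called in any. The level of *Neurod6* over *Neurod1*, 1.79 as the mean of the replicates, was 0.851 to 2.73 with replicates or libraries left out. No paired analysis was possible because the replicates are themselves the samples compared and there is 1 condition. The low depth of B2 limits what can be said of the factors in replicate B.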

Other observations

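Markers of other lineages were found beside the low projection neuron factors. In the GABAergic list 7 of 8 genes had a row (*Dlx6* had none), 6 had a mean of at least 1 FPKM and the median was 21.7 FPKM. *Dlx1* had 72.7 ± 46.9 FPKM (SD, n = 2), and *Lhx6*, a factor of maturing interneurons, was lowest at 0.487 FPKM. *Dlx1* was called higher in A, the 1 call among 6 genes tested, against 1.42% of all names in this direction and 6.2% in either, with 112 and 99.2 FPKM in A1 and A2 and 39.9 and 39.2 FPKM in B1 and B2. Without B1 *Gad2* was called higher in A as well. Both libraries of A were above both of B for 5 of the 7 and the reverse held for 0, against 30.4% and 24.2% of the detected names. The glutamatergic factor *Tbr1* had 0.259 FPKM in the same libraries.

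In the oligodendrocyte list 4 of 6 genes had a mean of at least 1 FPKM and the median was 4.58 FPKM. *Pdgfra*, a receptor of oligodendrocyte precursors that mesenchymal cells also express, was called higher in B, the 1 call among 4 genes tested, against 4.78% of all names in this direction, with 9.50 and 9.09 FPKM in A1 and A2 and 59.5 and 59.4 FPKM in B1 and B2. *Sox10* was lowest at 0.258 FPKM. The libraries lay higher in A for 3 of the 6 and higher in B for 3, against 30.4% and 24.2% of the detected names. Of the 9 markers of microglia, endothelium and blood, only *Cd68*, at 3.82 FPKM, reached a mean of 1 FPKM, and *Aif1* followed with 0.719 FPKM. Their summed level was 5.03 to 7.20 FPKM over the libraries. They lay higher in A for 2 and higher in B for 5 of the 9, against 30.4% and 24.2% of the detected names. The 5 higher in B all had a mean below 1 FPKM.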
